A study of Mus musculus with 10 samples.

Results

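The cluster histone genes are the genes of the mouse histone clusters, found as the 68 symbols beginning Hist1h, Hist2h, Hist3h or Hist4h among 23393 gene symbols in a table of RNA levels from T cells. Of these, 6 have symbols of linker histone H1, 18 of H2A, 19 of H2B, 12 of H3 and 13 of H4. Hist3h2bb-ps, of the H2B type, is annotated as a transcribed pseudogene. By cluster, 54 belong to Hist1 on chromosome 13, 10 to Hist2 on chromosome 3, 3 to Hist3 on chromosome 11 and 1 to Hist4 on chromosome 6. Levels are TPM, a length-normalised share of all transcripts in a library, and 56 of the 68 genes reached 1 TPM in at least 5 of the 10 libraries and were tested.

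The study compared IL-22-producing CD4+ T cells of 2 genotypes, with 5 libraries each. Riok2hKO cells carried Riok2f/+, Vav1cre/+ and Il22tdtomato/+, so that Cre driven by Vav1, a gene of blood-lineage cells, removes 1 of the 2 copies of Riok2, which encodes a kinase of small ribosomal subunit maturation. WT cells carried Riok2+/+ with the same Vav1cre/+ and Il22tdtomato/+ alleles. Mice of both groups were C57BL/6 at 10 weeks of age. Naive CD4+ T cells from the spleen were activated through CD3 and CD28 and cultured with IL-6, IL-23, IL-1b, the aryl hydrocarbon receptor ligand FICZ and antibodies against IL-4 and IFN-g, and 5000 cells positive for the tdTomato reporter of Il22 were sorted for each library. Whether replicates were separate mice or separate cultures is not labelled, so p-values cover no more than the variation among the libraries at hand, part of which may be technical.

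Histones H2A, H2B, H3 and H4 form the protein core around which DNA is wound, and H1 binds the DNA that links one core to the next. Dividing cells must make new histones as they copy their DNA, and the cluster genes supply them. These genes typically lack introns and are transcribed in S phase with the coactivator NPAT. They typically give mRNAs that end in a conserved stem-loop, bound by the protein SLBP, in place of a poly(A) tail. Activated T cells divide rapidly and depend on this supply. The libraries were made by SMART-seq2, which primes cDNA on poly(A), so that the values stand for those histone transcripts that the primer captured, and histone mRNAs without a tail may be under-represented.

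The stem-loop is shown for members of each type because it sets these mRNAs apart from others. Its consensus was found on the sense strand of the GENCODE M21 transcripts of 46 of the 68 members (67.6%), against 63 of 141691 other transcripts (0.0445%). The 16 bases of the match are in capitals, with 5 flanking bases on each side.
Hist2h3c2: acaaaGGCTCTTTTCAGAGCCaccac
Hist1h1d: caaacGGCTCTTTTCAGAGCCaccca
Hist1h2ab: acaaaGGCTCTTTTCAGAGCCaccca
Hist1h3g: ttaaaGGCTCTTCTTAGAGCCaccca
Hist1h2ao: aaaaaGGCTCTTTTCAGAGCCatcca
Hist1h2bk: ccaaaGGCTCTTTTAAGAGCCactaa
Hist1h4i: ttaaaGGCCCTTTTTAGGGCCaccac
Hist2h4: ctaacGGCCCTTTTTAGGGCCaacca
The form in Hist2h3c2, Hist1h1d, Hist1h2ab and Hist1h2ao was the most frequent, in 26 of the 46. By type, the match was present in 4 of 6 H1, 11 of 18 H2A, 10 of 19 H2B, 9 of 12 H3 and 12 of 13 H4 genes. The transcripts of Hist1h1b, Hist2h3b and Hist1h3h held no match, which says only that the letters are not in these models. In 23 of the 46 the annotated transcript went on for more than 100 bases after the stem-loop, and in 17 the stretch after it held AATAAA or its variant ATTAAA, hexamers that direct polyadenylation.

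Promoters are shown for 4 of the genes that were higher in Riok2hKO, as RefSeq windows of GRCm38.p6 around the transcription start. The window of Hist2h3c2 (H3) is at chr3:96239078-96239377 on the minus strand, Hist2h3b (H3) at chr3:96268404-96268703 on the plus strand, Hist1h1b (H1) at chr13:21780576-21780875 on the minus strand, and Hist1h2ab (H2A) at chr13:23750838-23751137 on the plus strand. Capitals mark matches to the letters TATAAA, to the pentamer CCAAT and to the octamer ATTTGCAT, each searched on both strands wherever they fall in the window. In Hist2h3c2 the 1 match is a CCAAT at position 15 after the start, and in Hist2h3b, Hist1h1b and Hist1h2ab the matches lie before it.
Hist2h3c2: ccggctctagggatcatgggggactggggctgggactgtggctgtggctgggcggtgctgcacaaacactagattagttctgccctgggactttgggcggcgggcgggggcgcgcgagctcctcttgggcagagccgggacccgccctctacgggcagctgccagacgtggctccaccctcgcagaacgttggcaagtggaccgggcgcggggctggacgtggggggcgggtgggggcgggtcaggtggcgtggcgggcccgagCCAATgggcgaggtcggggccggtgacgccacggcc
Hist2h3b: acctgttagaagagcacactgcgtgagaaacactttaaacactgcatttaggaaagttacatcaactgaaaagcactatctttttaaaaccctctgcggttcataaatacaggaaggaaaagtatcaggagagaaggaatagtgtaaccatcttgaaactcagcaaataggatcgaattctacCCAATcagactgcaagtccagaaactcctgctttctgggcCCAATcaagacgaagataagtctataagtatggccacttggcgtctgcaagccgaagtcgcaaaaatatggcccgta
Hist1h1b: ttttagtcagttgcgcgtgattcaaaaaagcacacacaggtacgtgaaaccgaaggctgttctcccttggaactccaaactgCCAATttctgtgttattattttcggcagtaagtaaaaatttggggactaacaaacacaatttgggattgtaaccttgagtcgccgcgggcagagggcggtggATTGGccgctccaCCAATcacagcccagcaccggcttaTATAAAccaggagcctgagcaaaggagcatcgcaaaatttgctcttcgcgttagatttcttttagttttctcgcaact
Hist1h2ab: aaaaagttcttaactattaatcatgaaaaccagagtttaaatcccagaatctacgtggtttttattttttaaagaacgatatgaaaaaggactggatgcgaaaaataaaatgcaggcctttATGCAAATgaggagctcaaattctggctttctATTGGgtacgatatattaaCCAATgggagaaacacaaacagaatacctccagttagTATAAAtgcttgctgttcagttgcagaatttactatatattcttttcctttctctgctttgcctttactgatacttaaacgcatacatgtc
Windows were found for 62 members. TATAAA was present in 35 of them (56.5%), against 13.6% of all 32851 windows in the RefSeq table. CCAAT was present in 53 (85.5%, against 37.4% of all windows): in every window of the H1, H2A, H2B and H3 genes, and in 3 of 12 H4 windows. The octamer, known from H2B promoters as a site of OCT1, was present in 14 (22.6%, against 1.7% of all windows), of which 7 were H2A and 7 were H2B. Windows of genes that lie head to head on opposite strands can overlap, and the same site is then counted for both genes. The windows of Hist1h2ah and Hist1h2bk, for example, share both their TATAAA and their octamer, and those of Hist1h2ad and Hist1h2bf share their TATAAA. The shares of members are therefore not counts of separate sites. These matches are descriptions of the letters and say nothing of factor binding.

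Riok2 averaged 13.7 ± 1.71 TPM in Riok2hKO cells and 28.3 ± 1.57 TPM in WT cells (SD, n = 5 each), a log2 fold change of -1.01 (limma adjusted p = 7.77e-06). TPM keeps no sequencing depth, so the reads behind a value are unknown. Libraries had 13948 to 14695 genes above 0 TPM, and their log2 values correlated across genes, which are not independent replicates, with Pearson's r of 0.991 to 0.996 within groups and 0.983 to 0.993 between them. In WT replicate 1 the summed TPM of each histone type was 96.0% to 104% of the average of WT replicates 2 to 5. Summed TPM of 8 CD4 T cell markers was 2263 to 2317 in Riok2hKO libraries and 2386 to 2399 in WT libraries, and that of 7 CD8 T and NK cell markers, with Klra1 at 0 in all libraries, was 12.5 to 17.2 in Riok2hKO libraries and 19.7 to 22.0 in WT libraries. Neither pair of ranges overlapped, and the part of these markers in the histone values was not tested. The CD4 sum hides both directions: of its 8 genes 1 rose and 3 fell by limma at an adjusted p under 0.05. Of the 7 CD8 T and NK cell markers, 4 were below 1 TPM in all libraries. Of the 2 tested 1 fell, and 2 were down at an unadjusted p under 0.05 by limma. Of 2 tested B cell markers, 1 rose and 0 fell, with 1 up and 1 down at an unadjusted p under 0.05. Of all genes tested, 9.58% rose and 7.55% fell. Sums of B cell markers (4.89 to 6.34 in Riok2hKO, 4.04 to 6.19 in WT), myeloid markers (3.17 to 3.96 in Riok2hKO, 2.37 to 4.23 in WT, with S100a8 and S100a9 at 0) and erythroid markers (0.61 to 1.5 in Riok2hKO, 0.47 to 1.56 in WT) overlapped.

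Changes among the cluster histone genes were few and modest in size. Of the 56 tested, 7 rose in Riok2hKO cells and 0 fell by limma at an adjusted p under 0.05 over all 10332 genes tested, with 11 up and 0 down at an unadjusted p under 0.05. The share that rose, 12.5%, stands against 9.58% of all genes tested that rose and 7.55% that fell, and is thus close to the share over all genes. In either direction 12.5% of the members changed, against 17.1% of all genes tested. The 7 were the H1 genes Hist1h1b and Hist1h1d, the H2A gene Hist1h2ab, and the H3 genes Hist2h3b, Hist2h3c2, Hist1h3g and Hist1h3h. In 4 members every Riok2hKO library lay above every WT library (8.72% of all genes tested did so), and in 0 members every Riok2hKO library lay below (5.87%). Log2 fold changes were positive in 38 members and negative in 18, with a median of 0.14 against -0.006 over all genes tested. The count rests on single libraries: without WT replicate 2 it was 2, without WT replicate 3 or Riok2hKO replicate 3 or 4 it was 3, and without WT replicate 4 or Riok2hKO replicate 2 it was 4.

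**Figure D1:**
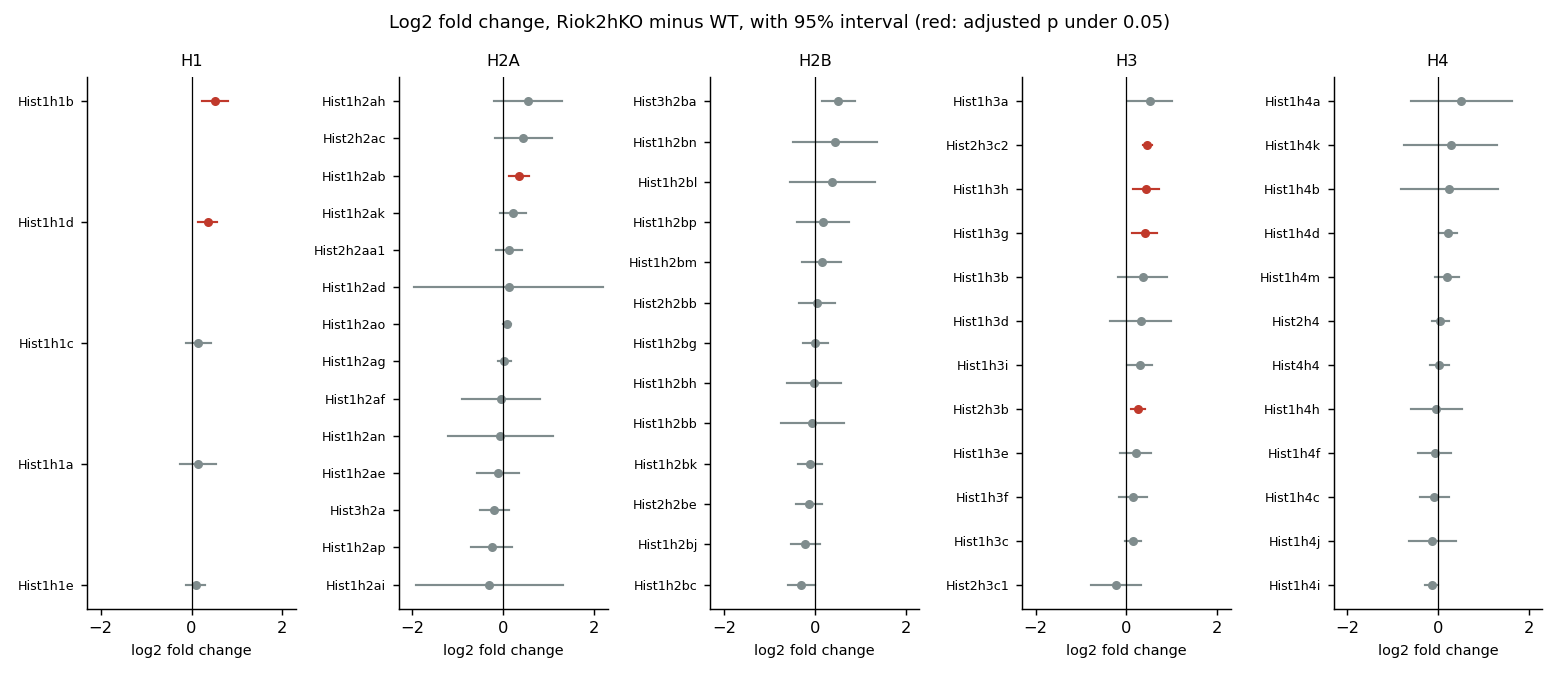
Log2 fold change (Riok2hKO minus WT, on the log2(TPM + 1) scale) with its 95% interval for the 56 tested cluster histone genes, one panel per type, with genes at an adjusted p under 0.05 in red. The 5 H1 points and 11 of the 12 H3 points lie right of 0, while H2A, H2B and H4 points lie on both sides.

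By type, 2 of 5 tested H1 genes (40.0%), 1 of 14 H2A genes (7.14%) and 4 of 12 H3 genes (33.3%) rose, against 9.58% of all genes tested. Of H2B genes 0 of 13 changed, and of H4 genes 0 of 12. At an unadjusted p under 0.05 by limma, 1 H2B and 1 H4 gene were up, and 0 down. Median log2 fold changes were 0.15 for H1, 0.058 for H2A, 0.010 for H2B, 0.30 for H3 and 0.040 for H4. All 5 tested H1 genes and 11 of 12 H3 genes had positive fold changes. Differences between types were not tested. In bulk libraries, more cells of a kind that holds much histone mRNA and more histone mRNA per cell cannot be told apart.

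The linker histone gene Hist1h1b, which encodes H1.5 and lies at chr13:21779832-21780625 on the minus strand, had 15.4, 22.0, 20.2, 15.8 and 19.2 TPM in Riok2hKO replicates 1 to 5, against 11.6, 14.0, 13.9, 14.7 and 9.14 TPM in WT replicates 1 to 5. All Riok2hKO libraries were above all WT libraries. Means were 18.5 ± 2.84 TPM in Riok2hKO and 12.7 ± 2.29 TPM in WT (SD, n = 5 each), a log2 fold change of 0.52 with an SE of 0.128 (limma adjusted p = 0.0167). Just 1.4% of the 38-base stretches, the length of a read, of its GENCODE M21 transcript recurred in another gene of the table. By this model, its value depends little on how reads were divided between copies.

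Hist1h1d, which encodes H1.3, was low, with 2.20, 2.66, 3.47, 3.03 and 2.54 TPM in Riok2hKO replicates 1 to 5, against 1.77, 1.86, 2.26, 1.84 and 1.99 TPM in WT replicates 1 to 5. Riok2hKO replicate 1 lay below WT replicate 3, so the groups overlapped at that point. Means were 2.78 ± 0.487 TPM in Riok2hKO and 1.94 ± 0.194 TPM in WT, a log2 fold change of 0.35 with an SE of 0.0968 (limma adjusted p = 0.0265), and 2.9% of its 38-base stretches were shared. The call was lost without WT replicate 2 or 4 or Riok2hKO replicate 3 or 4. The second most abundant linker gene, Hist1h1e (H1.4), had 9.61, 11.8, 10.95, 9.64 and 10.8 TPM in Riok2hKO replicates 1 to 5, against 10.0, 9.69, 11.7, 10.7 and 7.58 TPM in WT replicates 1 to 5. Its groups overlapped throughout, with a log2 fold change of 0.089 (limma adjusted p = 0.578). Hist1h1c (H1.2) ranged over 4.04 to 7.36 TPM in Riok2hKO and 4.32 to 5.05 TPM in WT, and Hist1h1a (H1.1) over 2.04 to 5.27 TPM in Riok2hKO and 2.49 to 3.36 TPM in WT; neither passed the test. The testis gene Hist1h1t was at 0 in all 10 libraries.

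Among H3 genes the Hist2 cluster held the highest levels and the smallest p. Hist2h3c2, at chr3:96238479-96239127 on the minus strand, had 156, 156, 158, 155 and 139 TPM in Riok2hKO replicates 1 to 5, against 120.3, 109, 107, 107 and 109 TPM in WT replicates 1 to 5. The groups were far apart for their spread: the lowest Riok2hKO library stood above the highest WT library by more than the range of WT. Means were 153 ± 7.86 TPM in Riok2hKO and 110.4 ± 5.62 TPM in WT, a log2 fold change of 0.46 with an SE of 0.0440 (limma adjusted p = 4.59e-05). This call was kept under all 19 alternative settings tried, with adjusted p between 6.60e-06 and 0.000646.

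Hist2h3b, the most abundant H3 gene, lies at chr3:96268654-96269155 on the plus strand, and its promoter is printed above beside that of Hist2h3c2. It had 312, 340.0, 352, 341 and 284 TPM in Riok2hKO replicates 1 to 5, against 247, 253, 265, 297 and 303 TPM in WT replicates 1 to 5. Riok2hKO replicate 5 lay below WT replicates 4 and 5, and the other Riok2hKO libraries lay above all WT libraries. Means were 326 ± 27.6 TPM in Riok2hKO and 273 ± 25.9 TPM in WT, a log2 fold change of 0.26 with an SE of 0.0695 (limma adjusted p = 0.0255), and the call was lost without WT replicate 2 or 3 or Riok2hKO replicate 2, 3 or 4. Both genes share reads with the third H3 gene of the cluster, Hist2h3c1: 80.3% of the 38-base stretches of Hist2h3b and 64.0% of those of Hist2h3c2 recur there. Hist2h3c1 itself ranged over 0.26 to 2.18 TPM in Riok2hKO and 0.75 to 2.16 TPM in WT and was the 1 H3 gene with a negative log2 fold change (-0.23, limma adjusted p = 0.575). Summed over the 3 genes, whose copies all encode the H3.2 protein, TPM was 423 to 512 in Riok2hKO and 363 to 413 in WT, a ratio of 1.25 with no overlap.

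Of the 4 Hist1 genes that encode the H3.1 protein, 2 rose. Hist1h3g had 8.51, 11.7, 9.81, 8.41 and 7.82 TPM in Riok2hKO replicates 1 to 5, against 7.19, 7.01, 7.48, 7.53 and 4.71 TPM in WT replicates 1 to 5. The groups did not overlap, but the lowest Riok2hKO library was close to the highest WT library. Means were 9.25 ± 1.54 TPM in Riok2hKO and 6.78 ± 1.18 TPM in WT, a log2 fold change of 0.40 with an SE of 0.125 (limma adjusted p = 0.0464). Hist1h3h had 17.4, 21.2, 19.5, 21.6 and 19.0 TPM in Riok2hKO replicates 1 to 5, against 14.3, 9.96, 14.7, 20.1 and 14.4 TPM in WT replicates 1 to 5. WT replicate 4 lay among the Riok2hKO libraries, and the other WT libraries were lower than all of them. Means were 19.7 ± 1.69 TPM in Riok2hKO and 14.7 ± 3.58 TPM in WT, a log2 fold change of 0.43 with an SE of 0.134 (limma adjusted p = 0.0463).

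Both calls sat just inside the threshold. Hist1h3g lost its call without WT replicate 2, 3, 4 or 5 or Riok2hKO replicate 1, 2, 3 or 4, and Hist1h3h without any single library other than WT replicate 4, with limma adjusted p up to 0.106 and 0.105 over the 19 alternatives. Hist1h3i, at 40.1 to 61.4 TPM in Riok2hKO and 31.6 to 45.2 TPM in WT, did not pass (log2 fold change 0.29, limma adjusted p = 0.127). Hist1h3a, at 8.70 to 15.2 TPM in Riok2hKO and 4.96 to 12.2 TPM in WT, did not pass either (0.51, limma adjusted p = 0.134). Hist1h3h and Hist1h3i share 83.2% of their 38-base stretches with each other, and their summed TPM was 59.0 to 80.9 in Riok2hKO and 45.9 to 59.9 in WT, overlapping at the edge. Summed over the 4 H3.1 genes, TPM was 80.2 to 103 in Riok2hKO and 61.5 to 79.6 in WT, a ratio of 1.30 with no overlap.

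The 5 remaining H3 genes, Hist1h3b, Hist1h3c, Hist1h3d, Hist1h3e and Hist1h3f, encode H3.2 from the Hist1 cluster, and none passed the test (limma adjusted p = 0.220 to 0.538), although Hist1h3c held 42.4 to 53.2 TPM in Riok2hKO and 37.2 to 49.0 TPM in WT. Their sum was 81.8 to 94.4 TPM in Riok2hKO and 69.1 to 85.0 TPM in WT, a ratio of 1.15 with overlap. Ratios were above 1 in all 3 sets of H3 genes. The sum of H3 without Hist2h3b and Hist2h3c2, chosen after their values were seen, kept Hist1h3g and Hist1h3h, which rose. It was 169 to 188 TPM in Riok2hKO and 137 to 159 TPM in WT, a ratio of 1.22 with no overlap. Its genes share stretches of sequence with other genes, so this sum also depends on how reads were divided.

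**Figure D2:**
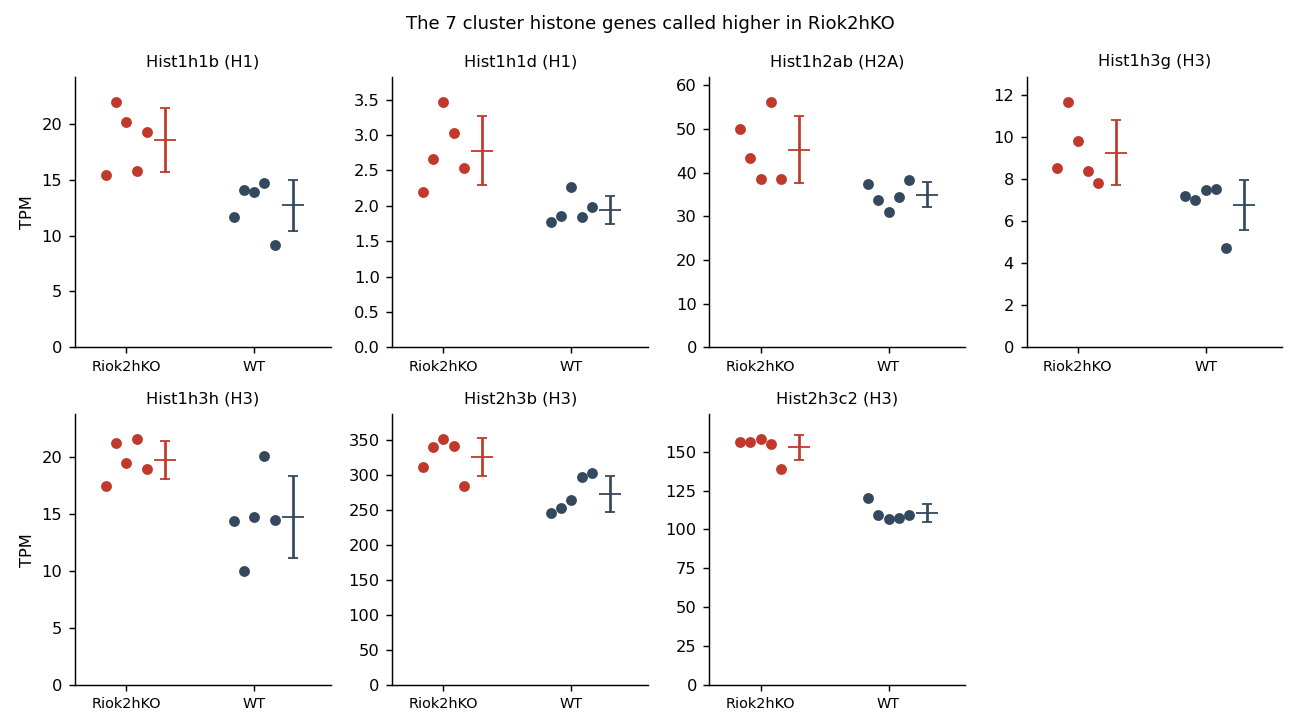
TPM of the 7 cluster histone genes that rose, one point per library (replicates 1 to 5 from left to right), Riok2hKO in red and WT in grey, with the group mean and SD beside the points and axes that start at 0. Hist2h3c2 shows the widest gap between groups for its spread, while Hist1h3h, Hist2h3b and Hist1h1d overlap.

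H2A was the most abundant type, and most of it came from a pair of genes, Hist1h2ao with 80.1% and Hist1h2ap with 12.1% of the type. Hist1h2ao, at chr13:21810367-21810918 on the plus strand, had 2376, 2238, 2429, 2119 and 2068 TPM in Riok2hKO replicates 1 to 5, against 2222, 2151, 2014, 2071 and 2097 TPM in WT replicates 1 to 5. Riok2hKO replicates 1 to 3 were higher than all WT libraries and replicates 4 and 5 lay within their range (log2 fold change 0.088, SE 0.0433, limma adjusted p = 0.191). Hist1h2ap had 202, 510, 355, 264 and 214 TPM in Riok2hKO replicates 1 to 5, against 299.5, 378, 369, 326 and 366 TPM in WT replicates 1 to 5. Riok2hKO libraries lay on both sides of all WT libraries (log2 fold change -0.25, limma adjusted p = 0.447).

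The pair shares 93.7% of the 38-base stretches of Hist1h2ao and 93.3% of those of Hist1h2ap, so their separate values are uncertain. Their sum varied within groups by a CV of 6.50%, against 28.3% for Hist1h2ap and 5.70% for Hist1h2ao alone. It was 2283 to 2784 TPM in Riok2hKO and 2383 to 2529 TPM in WT, with overlap.

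Hist1h2ab was the 1 H2A gene that rose. It had 49.9, 43.3, 38.5, 56.2 and 38.5 TPM in Riok2hKO replicates 1 to 5, against 37.3, 33.8, 31.0, 34.4 and 38.4 TPM in WT replicates 1 to 5. The groups did not overlap by a narrow margin, since Riok2hKO replicates 3 and 5 were almost level with WT replicate 5. Means were 45.3 ± 7.70 TPM in Riok2hKO and 35.0 ± 2.94 TPM in WT, a log2 fold change of 0.35 with an SE of 0.1001 (limma adjusted p = 0.0316), and the call was lost without WT replicate 2, 3 or 4 or Riok2hKO replicate 1, 2 or 4. Its transcript shares 60.8% of its 38-base stretches with other genes, most with Hist1h2ad.

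The other 11 tested H2A genes did not pass. Hist1h2ag was the most abundant of them, at 66.3 to 86.5 TPM in Riok2hKO and 67.3 to 80.2 TPM in WT. Hist1h2ak ranged over 20.0 to 32.9 TPM in Riok2hKO and 18.1 to 24.4 TPM in WT, Hist2h2aa1 over 13.1 to 19.8 TPM in Riok2hKO and 11.4 to 18.3 TPM in WT, Hist1h2ae over 6.65 to 18.3 TPM in Riok2hKO and 12.3 to 16.6 TPM in WT, and Hist1h2ah over 7.72 to 25.8 TPM in Riok2hKO and 4.01 to 14.8 TPM in WT. Hist1h2af, Hist2h2ac and Hist3h2a had group means of 3.30 to 7.08 TPM. Hist1h2ad, Hist1h2ai and Hist1h2an were at 0 in at least 1 library of each group, and Hist1h2ad, at 0 to 15.9 TPM in Riok2hKO and 0 to 17.3 TPM in WT, had a within-group CV of 111%. Without Hist1h2ao and Hist1h2ap, a sum chosen after their values were seen, H2A added to 211 to 234 TPM in Riok2hKO and 199 to 211 TPM in WT, a ratio of 1.08; the groups did not overlap, with 211.3 in the lowest Riok2hKO library and 210.6 in the highest WT library.

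No H2B gene held most of the TPM of its type, and none changed. Hist1h2bk had 44.5, 48.5, 34.8, 34.5 and 35.7 TPM in Riok2hKO replicates 1 to 5, against 33.2, 43.2, 48.9, 40.3 and 47.9 TPM in WT replicates 1 to 5 (log2 fold change -0.11, limma adjusted p = 0.579). Hist1h2bj had 27.4, 51.3, 41.5, 29.0 and 38.9 TPM in Riok2hKO replicates 1 to 5, against 46.4, 41.1, 43.1, 45.4 and 36.6 TPM in WT replicates 1 to 5 (-0.20, limma adjusted p = 0.362). In both genes the groups overlapped over most of their range. Hist3h2ba, a low gene of the Hist3 cluster on chromosome 11, was the member just outside the threshold, at 1.46 to 3.01 TPM in Riok2hKO and 0.76 to 1.92 TPM in WT (log2 fold change 0.52, limma adjusted p = 0.0552). It passed without WT replicate 1 or Riok2hKO replicate 2 or 4. Hist1h2bc had the lowest unadjusted p among members with a negative change, at 7.70 to 13.0 TPM in Riok2hKO and 11.4 to 17.4 TPM in WT (log2 fold change -0.30, limma adjusted p = 0.162). The other 9 tested H2B genes (Hist1h2bb, Hist1h2bg, Hist1h2bh, Hist1h2bl, Hist1h2bm, Hist1h2bn, Hist1h2bp, Hist2h2bb and Hist2h2be) had group means of 1.14 to 14.7 TPM and limma adjusted p of 0.521 or more.

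No H4 gene changed, although H4 genes summed to more TPM than H1 or H2B genes. Hist2h4, at chr3:96262934-96263317 on the minus strand, had 80.2, 102, 96.9, 85.1 and 77.8 TPM in Riok2hKO replicates 1 to 5, against 79.0, 82.3, 83.0, 79.9 and 100.8 TPM in WT replicates 1 to 5 (log2 fold change 0.054, limma adjusted p = 0.708). Just 1.8% of the 38-base stretches of its GENCODE M21 transcript were shared. By this model, its level depends little on division of reads. Hist1h4i had 69.1, 72.1, 70.8, 60.5 and 71.5 TPM in Riok2hKO replicates 1 to 5, against 86.2, 66.6, 74.8, 80.2 and 72.2 TPM in WT replicates 1 to 5 (-0.14, limma adjusted p = 0.191). Groups overlapped in both. Hist1h4d, at 48.1 to 67.3 TPM in Riok2hKO and 43.1 to 58.0 TPM in WT, had the smallest p of the type (log2 fold change 0.22, limma adjusted p = 0.132). The other 9 tested H4 genes (Hist1h4a, Hist1h4b, Hist1h4c, Hist1h4f, Hist1h4h, Hist1h4j, Hist1h4k, Hist1h4m and Hist4h4) had group means of 1.16 to 29.5 TPM and limma adjusted p of 0.294 or more.

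Summing TPM within a type lessens the uncertainty of how reads were divided among its own copies. H1 summed to 35.0, 44.5, 46.2, 37.9 and 39.5 TPM in Riok2hKO replicates 1 to 5, against 31.6, 32.8, 34.9, 34.9 and 26.0 TPM in WT replicates 1 to 5. These H1 groups did not overlap, but only just: the lowest Riok2hKO library had 34.98 and the highest WT library 34.93 TPM. H3 summed to 638, 684, 696, 673 and 599 TPM in Riok2hKO replicates 1 to 5, against 513, 505, 530.4, 555 and 549 TPM in WT replicates 1 to 5. All Riok2hKO libraries lay clearly above all WT libraries. Ratios of the group means were 1.27 for H1 and 1.24 for H3. Over the 10 libraries, Hist1h1b made up 42.9% of the H1 sum and Hist2h3b 50.4% of the H3 sum. Of the other H1 genes, Hist1h1e, Hist1h1c and Hist1h1a did not pass the test.

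The remaining types overlapped between groups. H2A summed to 2790, 2982, 3007, 2595 and 2506 TPM in Riok2hKO replicates 1 to 5, against 2727, 2739, 2582, 2596 and 2666 TPM in WT replicates 1 to 5, a ratio of 1.04. H2B summed to 132, 172, 132, 116 and 136 TPM in Riok2hKO replicates 1 to 5, against 144, 141, 152, 148 and 141 TPM in WT replicates 1 to 5, a ratio of 0.949. In H2B, Riok2hKO replicate 2 was the highest library and the other Riok2hKO libraries were the lowest. H4 summed to 261, 312, 295, 272 and 281 TPM in Riok2hKO replicates 1 to 5, against 284, 267, 271, 269 and 289.6 TPM in WT replicates 1 to 5, a ratio of 1.03. Over all 68 members the sum was 3561 to 4194 TPM in Riok2hKO and 3570 to 3700 TPM in WT, a ratio of 1.07 with overlap. H3 made up 16.9% of it in Riok2hKO and 14.6% in WT, H1 1.04% in Riok2hKO and 0.879% in WT, H2A 71.3% in Riok2hKO and 73.0% in WT, H2B 3.53% in Riok2hKO and 3.98% in WT, and H4 7.29% in Riok2hKO and 7.58% in WT.

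**Figure D3:**
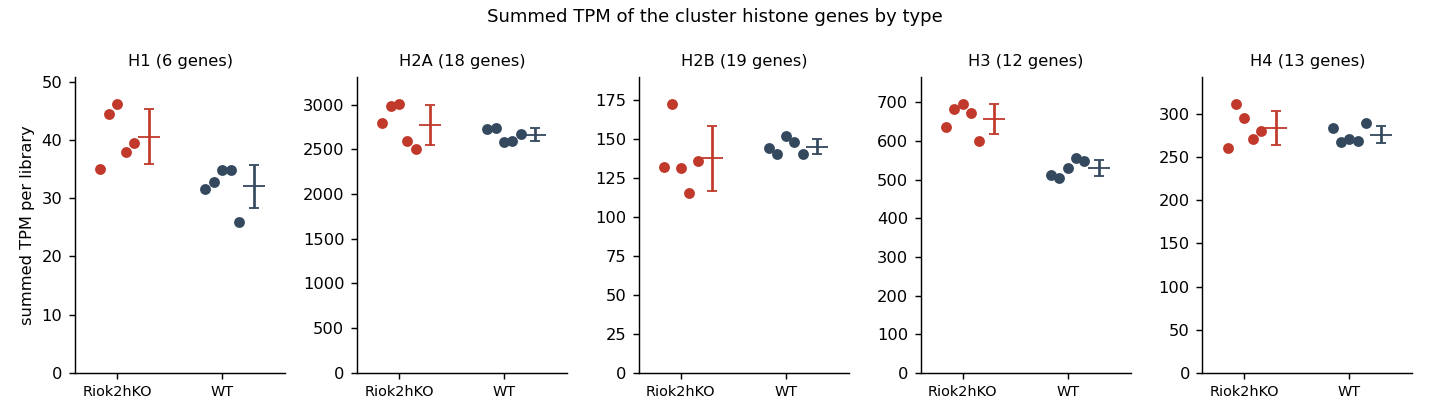
Summed TPM of the members of each histone type, one point per library (replicates 1 to 5 from left to right), Riok2hKO in red and WT in grey, with the group mean and SD beside the points and axes that start at 0. The H1 and H3 sums of Riok2hKO lie above those of WT, by a margin of 34.98 against 34.93 TPM for H1, while H2A, H2B and H4 overlap.

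By cluster, 5 of 45 tested Hist1 genes (11.1%) and 2 of 8 tested Hist2 genes (25.0%) rose, against 9.58% of all genes tested. In the other clusters, 0 of the 2 tested Hist3 genes and 0 of 1 Hist4 gene changed. Hist2 summed to 525.9 to 637 TPM in Riok2hKO and 471 to 536 TPM in WT, a ratio of 1.202, and Hist1 to 3028 to 3556 TPM in Riok2hKO and 3078 to 3220 TPM in WT, a ratio of 1.05. Both overlapped. Many H2A and H2B genes lie head to head: 14 pairs of members had start sites 164 to 608 bases apart on opposite strands, 13 of them an H2A with an H2B. In the 8 pairs with both genes tested, log2 fold changes had the same sign in 1 and opposite signs in 7. No gene of these pairs passed the test, so the signs are uncertain. In the pair Hist1h2ah and Hist1h2bk, for example, the changes were 0.55 (limma adjusted p = 0.305) and -0.11 (limma adjusted p = 0.579).

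Of the 12 members that were not tested, Hist1h1t, Hist1h2aa, Hist1h2ba and Hist1h4n were at 0 in all 10 libraries; textbook accounts place the first 3 in testis. Hist1h2ac, Hist1h2be, Hist1h2bf, Hist1h2bq, Hist1h2br, Hist2h2aa2, Hist2h2ab and Hist3h2bb-ps had group means below 1 TPM. Hist1h2bq and Hist1h2br had equal values in 10 of 10 libraries. All 38-base stretches of Hist2h2aa2 recurred in other genes, and its values are not separable from theirs.

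Copy sharing was the rule in this family. In 66 of 68 members some 38-base stretch recurred in another gene of the table, in 34 at least 50% did, and in 8 at least 90%. The median share was 2.2% for H1, 73.7% for H2A, 48.1% for H2B, 59.4% for H3 and 44.2% for H4. Among members that share at least 50%, 5 of 29 tested rose (17.2%), and among those that share less, 2 of 27 rose (7.41%). Of all genes tested 9.58% rose, and the difference between these sets of members was not tested. Members varied more between replicates than other genes of their level: the median residual SD on the log2 scale was 0.286 for the 56 members and 0.105 for all genes tested. For mean log2(TPM + 1) of 1 to 3 it was 0.490 in 27 members and 0.163 in all genes, for 3 to 5 it was 0.250 in 15 members and 0.108 in all genes, and from 5 up it was 0.157 in 13 members and 0.0660 in all genes; 1 member lay below this range. Across the 56 members, which share libraries and reads, Spearman's rho of this SD was -0.62 with level and 0.16 with the shared percentage.

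**Figure D4:**
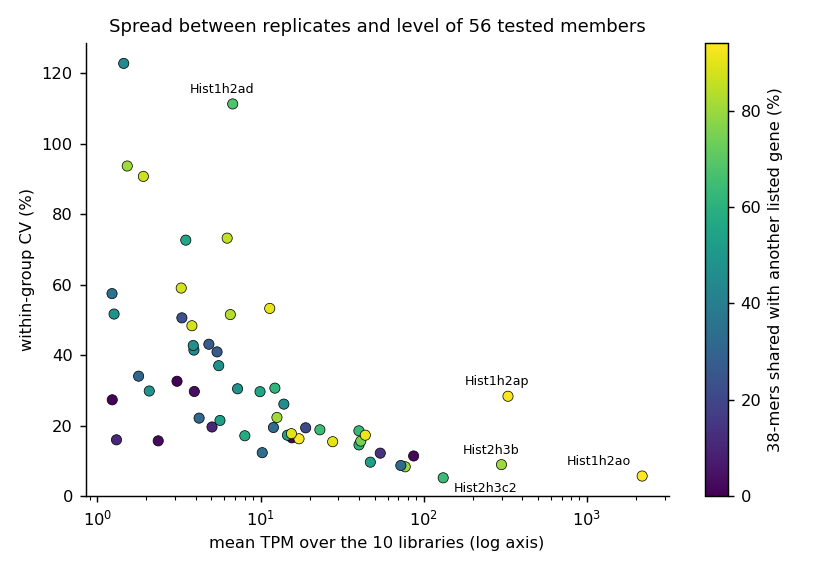
Within-group coefficient of variation (%) against mean TPM over the 10 libraries (log axis) for the 56 tested members, coloured by the percentage of 38-base stretches shared with another listed gene. Spread falls with level, but Hist1h2ap, with a CV of 28.3%, lies above other abundant members such as Hist1h2ao at 5.70%.

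Histone variants whose expression is not limited to S phase give a comparison within the same libraries. For these and the gene lists that follow, counts stand beside 9.58% of all genes tested that rose and 7.55% that fell, and no difference between a list and the cluster histone genes was tested. Of 9 tested variants, 1 rose and 0 fell by limma (1 up and 2 down at an unadjusted p under 0.05), with a median log2 fold change of -0.011. H2afz (H2A.Z) had 2338 ± 41.8 TPM in Riok2hKO and 2389 ± 62.9 TPM in WT (limma adjusted p = 0.341), and H2afx (H2A.X, marked at DNA breaks) had 164 ± 3.65 TPM in Riok2hKO and 161 ± 5.34 TPM in WT (limma adjusted p = 0.486). The H3.3 genes H3f3a, with 796 ± 11.97 TPM in Riok2hKO and 832 ± 21.3 TPM in WT (limma adjusted p = 0.0622), and H3f3b, with 923 ± 37.3 TPM in Riok2hKO and 966 ± 43.6 TPM in WT (limma adjusted p = 0.231), did not pass the test. The linker variant H1f0 rose to 17.6 ± 2.28 TPM in Riok2hKO, against 11.4 ± 3.35 TPM in WT (log2 fold change 0.63, limma adjusted p = 0.0435). In WT replicate 1 H1f0 was at 42.5% of the average of WT replicates 2 to 5, and the gene lost its call without WT replicate 4 or 5 or any 1 Riok2hKO library, and also with no filter on low values or no mean-variance trend.

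Factors of histone mRNA 3′ processing and decay showed changes in both directions: 2 of 28 rose and 3 fell, with a median of 0.066. Slbp, which binds the stem-loop printed above, had 165.5 ± 10.6 TPM in Riok2hKO and 171 ± 8.30 TPM in WT (limma adjusted p = 0.505). Lsm10 (limma adjusted p = 0.811) and Lsm11 (limma adjusted p = 0.464), subunits of the U7 particle that guides cleavage after the stem-loop, did not pass the test. Casp8ap2 (FLASH), which acts in the cleavage complex, rose (log2 fold change 0.24, limma adjusted p = 0.0181), as did Cpsf4 (0.27, limma adjusted p = 0.0267), and Cpsf3, the cleaving enzyme, fell (-0.13, limma adjusted p = 0.00981), as did Cpsf1 (-0.12, limma adjusted p = 0.0241). Cpsf4 lost its call without WT replicate 2 or Riok2hKO replicate 3 or 4. Without WT replicate 5 or Riok2hKO replicate 1 or 2, 1 fell, and without Riok2hKO replicate 3 or 4, 1 rose. Of 19 genes of histone gene transcription and cell cycle control, 3 rose (Ezh2 with a log2 fold change of 0.30, Cdkn1a with 0.25, and Casp8ap2) and 0 fell, also 0 at an unadjusted p under 0.05, with a median of 0.045. Cdkn1a, an inhibitor of cyclin-dependent kinases, lost its call without WT replicate 3 or 4 or Riok2hKO replicate 1, 3 or 4. Npat, the coactivator of cluster histone genes, had 7.29 ± 0.246 TPM in Riok2hKO and 6.81 ± 0.582 TPM in WT (limma adjusted p = 0.362).

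Histone chaperones and assembly factors held 8 genes that rose and 2 that fell of 34 tested, with a median of 0.056. The 4 with the smallest p among them were Anp32a (log2 fold change 0.39), Rbbp4 (0.27), the histone H3.3 depositor Atrx (0.27) and Mms22l (0.75). In WT replicate 1 Mms22l was at 60.0% of the average of WT replicates 2 to 5. Asf1b (-0.15, limma adjusted p = 0.0592), a chaperone of new H3 and H4, and Hira (0.14, limma adjusted p = 0.144), a chaperone of H3.3, did not pass. The 2 that fell became 1 without WT replicate 1, 4 or 5 or Riok2hKO replicate 1, 3, 4 or 5. In the list of linker histones and chromatin architectural proteins, 2 of 13 rose (Hmgb2, log2 fold change 0.14, and H1f0) and 1 fell (Hmgn1, -0.21), with a median of 0.0002. Hmgb2 lost its call without WT replicate 3, 4 or 5 or Riok2hKO replicate 1, 3 or 5.

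Genes of DNA replication, the process in whose phase the cluster histones are made, changed in both directions, with a median of -0.050. Of 48, 4 rose (8.33%, against 9.58% of all genes tested) and 5 fell (7.55% of all genes tested fell). Log2 fold changes were positive in 16 and negative in 32, against 4957 and 5375 over all genes tested. At an unadjusted p under 0.05 by limma, 4 were up and 10 down. Rfc3 of the clamp loader rose (log2 fold change 0.31), while Ung (-0.20), Rfc5 (-0.15) and the polymerase delta subunit Pold2 (-0.15) fell, the last without a call when WT replicate 3 or Riok2hKO replicate 1 or 4 was left out. Just 1 rose with a covariate for detected genes and 2 fell without a mean-variance trend. Likewise, 1 or 2 rose without WT replicate 2, 4 or 5 or any 1 Riok2hKO library, and 2 or 3 fell without WT replicate 3 or 5 or Riok2hKO replicate 1, 3 or 4. Genes of G2 and mitosis rose in 10 of 31 cases (32.3%, against 9.58% of all genes tested) and fell in 0 (1 was down at an unadjusted p under 0.05 by limma), with a median of 0.085. The 4 of smallest p were Top2a (log2 fold change 0.31), which untangles DNA, Anln (0.27), Cenpf (0.29) and Hmgb2 (0.14). That count was 4 with a covariate for detected genes and 5 without a mean-variance trend, and it was 3 to 6 without WT replicate 2, 3, 4 or 5 or Riok2hKO replicate 1, 3, 4 or 5. The part of these cell cycle genes in the histone values was not tested.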

How the data were processed

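RNA was measured in 5 Riok2hKO and 5 WT libraries. The authors aligned reads of 38 bases in pairs to the mm10 transcriptome with Bowtie and deposited TPM estimated by RSEM, per the labels' protocols. The RSEM version was 1.2.8, per the submitters' processing notes, and no annotation release is named there. RSEM splits reads that match several genes by estimation. TPM is a share of a fixed total, so values of genes depend on each other. SMART-seq2 does not mark strand.

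Of 23420 rows, 27 whose symbol had become a date (0.107% to 0.114% of TPM) were left out. The test was limma 3.58.1 in R 4.3.3 on log2(TPM + 1), using eBayes with trend, for genes that reached 1 TPM in 5 or more libraries, with Benjamini-Hochberg adjustment over all genes. "Rose" and "fell" mean an adjusted p under 0.05. Type sums have no test. On simulated data for this comparison (10332 genes, 200 changed), the test found 77% of log2 changes of 0.5 and 98% of changes of 1. Of its calls, 4.89% were false. The 200 were drawn from all genes tested. Cluster histone genes varied more between replicates, so these percentages do not carry over to them. Sharing of 38-base stretches was counted between GENCODE M21 transcripts of the genes in the table. Figures used matplotlib 3.10.9 in Python 3.11.15.

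Members and gene lists were chosen with earlier results of these data known. Named genes are all tested members, up to 4 changed genes of each list by smallest p (the 2 of smallest p where fewer than 2 changed), and a fixed set of histone regulators and variants. Alternatives covered pseudocount, filter, scaling, variance model, a covariate for detected genes, a block on replicate number, and each library left out.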

Additional observations from a re-analysis of the deposited data

Results flagged for a closer look

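Of 46 groups of 5 libraries checked for a library far from the others, 5 had one, where chance gives about 1 in 20. In Hist2h3c2, the H3 gene with the smallest p, Riok2hKO replicate 5 was lowest at 138.8 TPM (others 154.9 to 158.1), and WT replicate 1 was highest at 120.3 TPM (others 106.7 to 109.1). Both lie towards the opposite group, and the call held without either. In Hist1h3g, WT replicate 5 was lowest at 4.71 TPM (others 7.01 to 7.53), and the call was lost without it. In the H4 genes, Hist1h4i was lowest in Riok2hKO replicate 4 at 60.5 TPM (others 69.1 to 72.1), and Hist2h4 was highest in WT replicate 5 at 100.8 TPM (others 79.0 to 83.0). The causes were not tested.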

How the results depend on the processing

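Under 19 alternative settings, 0 cluster histone genes fell and 2 to 8 rose. Over all genes tested, the share that rose ranged over 4.05% (no filter on low values) to 10.7% (a covariate for detected genes). Hist2h3c2 and Hist1h1b rose under all 19, Hist1h1d under 14, Hist2h3b under 12, Hist1h2ab under 10, and Hist1h3g and Hist1h3h under 7 each. Without a filter on low values 2 rose, and without a mean-variance trend 3 rose. Leaving out 1 library gave 2 to 7. Scaling by median of ratios gave 7, and quantile normalization or a covariate for detected genes gave 5. Same-numbered libraries did not deviate together (correlations of -0.034 to 0.068), and a replicate block gave 8, adding Hist3h2ba; under the block H1f0 lost its call, and 1 gene of DNA replication (4 without it) and 5 of G2 and mitosis (10 without it) rose. The block also left 1 gene that fell in 3′ processing (3 without it) and 1 among chaperones (2 without it), and ended the calls of Cdkn1a and Cpsf1. Without a filter or with quantile normalization, 2 genes of DNA replication rose. Over all genes, 1199 to 1848 changed. H3 sums kept log2 ratios of 0.29 to 0.34 and H1 sums 0.28 to 0.39 when 1 library was left out. The H2A log2 ratio, 0.061, was -0.057 without Hist1h2ao. Lsm10, at 0.03, ranged over -0.025 (without WT replicate 2) to 0.075 when 1 library was left out, and was -0.008 without Riok2hKO replicate 3. The causes were not tested. Depth is unknown, and log2(TPM + 1) understates changes of low genes.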
